A study of Mus musculus with 12 samples.

Results

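The collagen chain genes are the protein-coding genes whose symbols read Col, a type number, the letter a and a chain number. The rule took 44 of the 56748 genes in the count table: 11 fibrillar chains, 6 chains of type IV, 3 chains of the basement membrane zone, 9 fibril-associated chains (FACIT), 3 short-chain network formers, 6 chains of type VI, 4 transmembrane chains and 2 others. Of these, 38 passed the filter on low counts and were tested, and 6 did not. Polyadenylated RNA of the left ventricle was sequenced from 12 C57BL/6J mice of wild type genotype, 1 library per mouse and 4 mice per group. In 2 groups the left anterior descending coronary artery was ligated to cause myocardial infarction (MI), after tail vein injection of AAV9 carrying Irx3 (called Irx3-infarcted hearts here) or of the control AAV9 (control-infarcted hearts). The third group received the control AAV9 and sham surgery (sham hearts), and all tissue was collected 14 days after surgery. Irx3 is an Iroquois-family homeobox gene for a transcription factor, and AAV9 is an adeno-associated virus that reaches heart muscle well. There was no sham group with the Irx3 vector, so its values come from infarcted hearts alone. The promoter that drives Irx3 in the vector, the dose, and the sex and age of the mice were not stated in these sources. The labels give 1 batch for all libraries.

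Collagens are triple-helical proteins of the extracellular matrix, each molecule wound from 3 alpha chains that may be copies of a single gene's product or come from different genes. Fibrillar collagens, mainly types I and III in the heart, form the cables that bear tension and replace lost muscle in an infarct scar. Type IV chains form the sheet-like network of basement membranes around cardiomyocytes and capillaries, FACIT collagens sit on the surface of fibrils, type VI forms beaded filaments at the cell border, and the short-chain collagens VIII and X form open lattices.

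Total counts per library were 13352604 to 19236721 in Irx3-infarcted hearts, 16081360 to 18738571 in control-infarcted hearts and 15966982 to 18441830 in sham hearts. The vector gene Irx3 averaged 393 ± 111 CPM in Irx3-infarcted hearts, 23.1 ± 6.89 CPM in control-infarcted hearts and 24.5 ± 2.65 CPM in sham hearts (SD, n = 4 each), where CPM is the read count normalised to the library's scaled total, as edgeR's cpm gives it. Mitochondrial transcripts made up 10.4 to 19.0% of counts in Irx3-infarcted hearts, 0.926 to 5.64% in control-infarcted hearts and 4.5 to 8.22% in sham hearts. Replicate 4 was the extreme library of both infarcted groups in this share, the highest with the Irx3 vector and the lowest with the control vector. The labels call the cells cardiomyocytes, but markers of fibroblasts, endothelium, mural cells and macrophages were read in every library, as in whole tissue, and no marker of any of the 12 cell type lists was at 0 in all libraries. The 8 cardiomyocyte markers summed to 25518 to 40862 CPM, 17639 to 50696 CPM and 79335 to 92012 CPM in the Irx3-infarcted, control-infarcted and sham libraries. The 6 resident fibroblast markers, none of them a collagen, summed to 1959 to 3119.5 CPM, 3322.5 to 7820.1 CPM and 1848 to 2247 CPM in the same order. Gsn had the largest mean of them in each group, at 1312.6 ± 289 CPM, 3344 ± 1290 CPM and 1574.5 ± 124 CPM in that order (SD, n = 4 each). Each of the others had a higher mean in Irx3-infarcted than in sham hearts, such as Dcn at 827 ± 216 CPM and 225 ± 26.5 CPM. In bulk tissue, fewer cells of a type and less RNA per cell cannot be told apart.

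Collagen chain transcripts together made up 3.75, 1.02, 1.85 and 0.536% of all counts in Irx3-infarcted replicates 1 to 4, against 2.53, 1.84, 2.59 and 4.72% in control-infarcted replicates 1 to 4 and 0.189, 0.222, 0.185 and 0.161% in the sham replicates. Every infarcted library lay above every sham library, and the infarcted groups overlapped. Levels of different chains were compared as CPM per kilobase of coding sequence. On that scale fibrillar chains held 64.4 ± 10.6% of the summed collagen level in Irx3-infarcted hearts, 70.5 ± 4.68% in control-infarcted hearts and 23.8 ± 0.654% in sham hearts (SD, n = 4 each). Type IV chains held 14.4 ± 6.67% in Irx3-infarcted, 10.9 ± 2.74% in control-infarcted and 52.8 ± 1.38% in sham hearts. The sham ventricle was led by Col4a1 and Col4a2, with 25.8 ± 0.811% and 25.2 ± 0.737% of the level, and the infarcted ventricle by Col1a1, Col3a1 and Col1a2. Type VI chains held 10.1 ± 1.86% in Irx3-infarcted, 10.9 ± 1.66% in control-infarcted and 16.0 ± 0.653% in sham hearts. The short-chain formers held 5.3 ± 0.988%, 2.96 ± 0.556% and 1.27 ± 0.248% in the same order, without overlap between groups, and the FACIT chains held 2.13 ± 0.278%, 2.35 ± 0.148% and 1.39 ± 0.0299%. These shares carry no GC correction (described further on). Col8a1, the main short-chain former, had the lowest GC content of the tested chains, 46.8%. Its log2 fold change in Irx3-infarcted against control-infarcted hearts was 0.13, and -0.19 with that correction, called in neither.

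**Figure D1:**
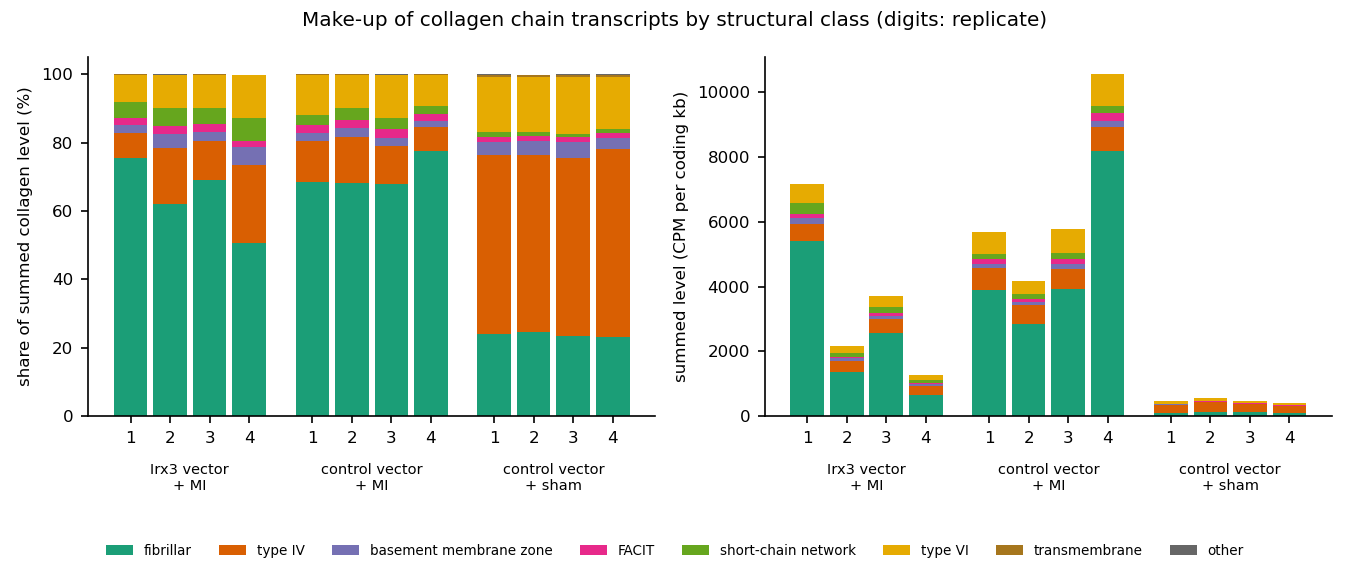
The 12 libraries are on the horizontal axis, grouped as Irx3-infarcted, control-infarcted and sham with the replicate number below each bar. The left panel gives each structural class as a share of the summed collagen level (%) and the right panel the level itself (CPM per coding kb). Fibrillar chains hold 50.7 to 75.6% of the level in Irx3-infarcted, 67.9 to 77.5% in control-infarcted and 23.2 to 24.6% in sham libraries, and the highest fibrillar level of a group is 8.47, 2.87 and 1.47 times its lowest.

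In control-infarcted against sham hearts, 32 of the 38 tested collagen chains rose, 1 fell and 5 did not pass the test, with a median log2 fold change of 3.19 where the median of all 15742 tested genes was 0.01. Of all tested genes, 26.3% were called higher and 22.4% lower in that comparison (edgeR quasi-likelihood test, Benjamini-Hochberg adjusted p under 0.05). All 32 risers but Col26a1, and also Col20a1, had every infarcted library above every sham library, as had 24.5% of all tested genes. Because 11 tested chains were not above 0.6 CPM in all sham libraries, the count is also given without them: among the 27 chains above it in every sham library 22 rose and 1 fell. Of the 11, 9 had an infarcted group wholly above 0.6 CPM, which selects toward higher values in infarcted hearts, while Col13a1 and Col26a1 had no group wholly above it. By class, 10 of 11 fibrillar chains, all 6 type IV chains, all 3 chains of the basement membrane zone, 6 of 7 tested FACIT chains, both tested short-chain formers and 4 of 5 tested type VI chains rose. Neither tested transmembrane chain was called. Among the chains above 0.6 CPM in every sham library, the median log2 fold change was 4.48 for 8 fibrillar, 4.27 for 5 FACIT, 2.87 for 4 type VI, 2.61 for 2 basement membrane zone and 1.35 for 5 type IV chains, and the only such short-chain former, Col8a1, was at 4.57. Several cell type lists moved in this comparison, with 6 of 6 resident fibroblast and 6 of 6 macrophage markers called higher. So were 4 of 4 T or NK cell and 5 of 6 chondrocyte-like markers, with none lower. Of 6 activated fibroblast markers 4 were called higher and 1 lower, and of 8 cardiomyocyte markers 7 were called lower and none higher. The part of these cell types in the collagen values was not tested.

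In Irx3-infarcted against sham hearts, a comparison that shares its sham libraries with the one above, 29 of 38 chains rose, 1 fell and 8 did not pass the test, with a median log2 fold change of 2.31 against 0.12 for all tested genes. Of all tested genes, 35.2% were called higher and 27.7% lower. In 27 of the chains every Irx3-infarcted library lay above every sham library, as in 33.2% of all tested genes. Among the 27 chains above 0.6 CPM in every sham library 21 rose and 1 fell, with a median of 2.13. Fibrillar chains again had 10 of 11 members called higher. Of 6 resident fibroblast markers 5 were called higher and none lower, of 6 activated fibroblast markers 4 higher and 1 lower. Of 6 macrophage markers 6 were called higher, and of 8 cardiomyocyte markers 1 higher and 5 lower. The part of these cell types in the collagen values was not tested. The chain that fell was Col11a2, a partner chain of cartilage fibrils, and its call was lost with the GC correction described further on.

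**Figure D2:**
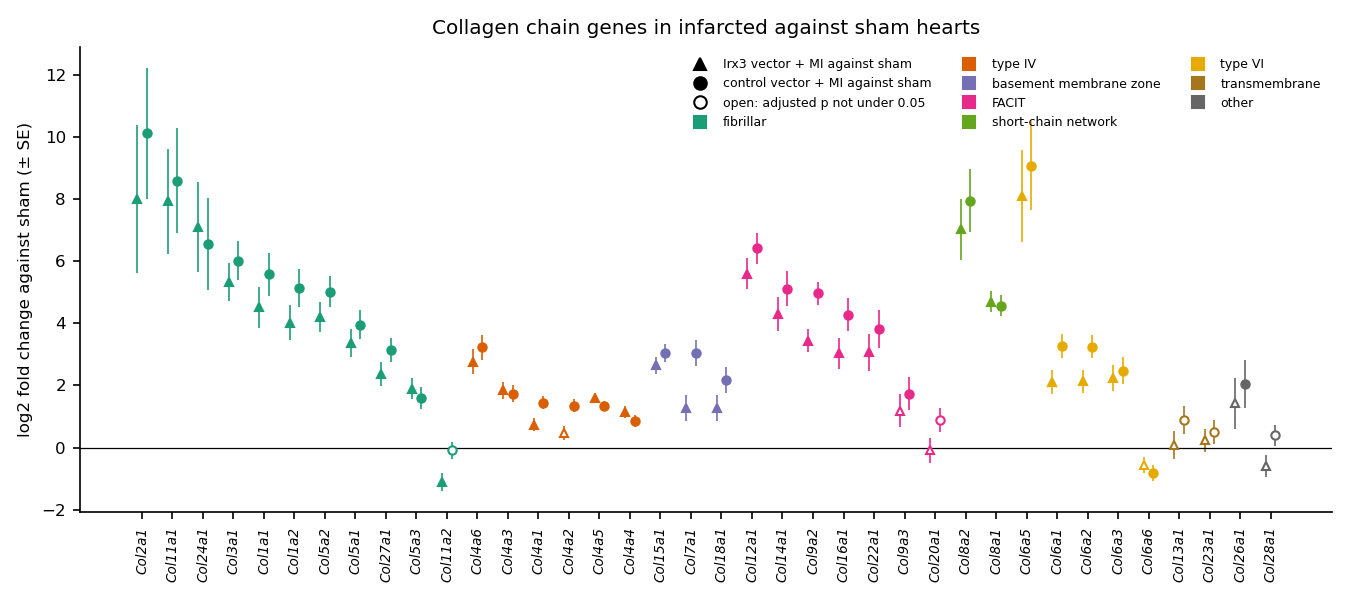
Each tested collagen chain gene is on the horizontal axis, ordered by structural class, and the vertical axis is its log2 fold change against sham hearts with the standard error. Triangles are Irx3-infarcted and circles control-infarcted hearts, and open symbols did not reach an adjusted p under 0.05. Fibrillar, FACIT and short-chain members reach the upper part of the plot, as does Col6a5 of type VI (8.08 in Irx3-infarcted and 9.07 in control-infarcted hearts). Type IV members lie between 0.47 and 3.23, and Col6a6 and Col11a2 are the members called lower.

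Among fibrillar chains, Col1a1 and Col1a2 encode the chains of type I collagen, the stiff fibril of scar, and Col3a1 the chain of type III, a more compliant fibril laid down with it. Col1a1 had 8079.7, 2044, 3494 and 742 CPM in Irx3-infarcted hearts, against 6387, 3801, 5524.5 and 13999.9 CPM in control-infarcted hearts and 150, 190, 164 and 120 CPM in sham hearts. Col3a1 had 8428, 1953, 4238 and 1091 CPM in Irx3-infarcted, 4910.0, 4546, 5644 and 10399.7 CPM in control-infarcted and 96.9, 134, 86.8 and 74.3 CPM in sham hearts. Col1a2 had 5141, 1299, 2404 and 621 CPM in Irx3-infarcted, 4174.5, 2981, 4415 and 8821 CPM in control-infarcted and 139, 168, 144 and 131 CPM in sham hearts. For all 3 genes the infarcted libraries lay apart from sham, while Irx3-infarcted replicate 1 was within and the other Irx3-infarcted libraries below the control-infarcted range. In control-infarcted against sham hearts the log2 fold change was 5.57 (SE 0.69, adjusted p 6.64e-05) for Col1a1, 6.02 (SE 0.63, 2.82e-05) for Col3a1 and 5.13 (SE 0.61, 4.88e-05) for Col1a2 by edgeR. In Irx3-infarcted against sham hearts it was 4.52 (SE 0.66, 7.48e-05), 5.32 (SE 0.61, 1.33e-05) and 4.02 (SE 0.57, 6.48e-05) for the same genes, and 3.70, 4.58 and 3.26 without Irx3-infarcted replicate 1, the highest library.

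**Figure D3:**
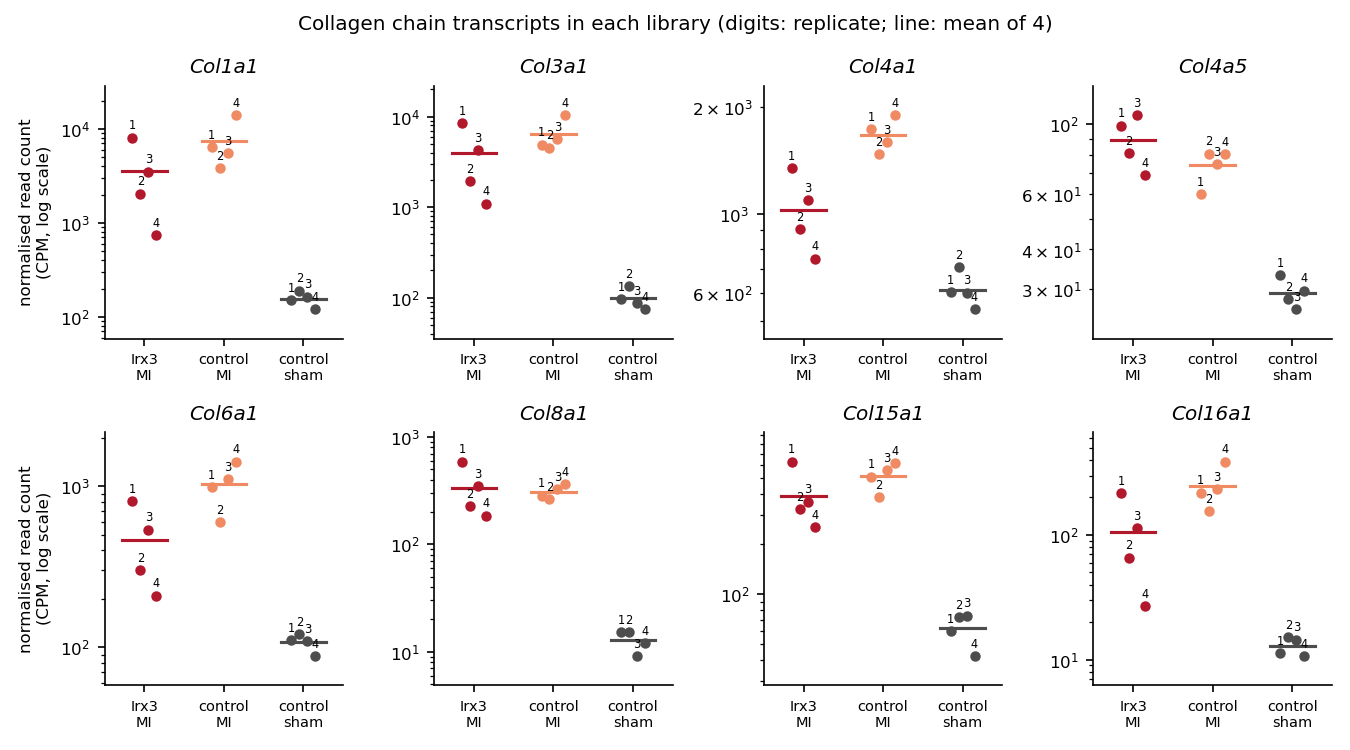
Each panel gives a collagen chain gene, with the normalised read count (CPM) on a log axis, the groups ordered as Irx3-infarcted, control-infarcted and sham, the replicate number above each point and the mean of 4 libraries as a line. Col1a1 and Col3a1 span about an order of magnitude among Irx3-infarcted libraries (742 to 8079.7 CPM for Col1a1), while Col4a1 and Col4a5 stay within a narrow range in each group.

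The start-site windows of Col3a1 and Col1a2, which rose together with the infarct, are shown because they differ in base composition and in the promoter motif letters they hold. RefSeq windows of 300 bases (250 before and 50 after the annotated start, GRCm38.p6) were found for 35 of the 44 chains, 38 windows in all; Col1a1, Col2a1, Col4a3, Col5a2, Col9a3, Col12a1, Col14a1, Col22a1 and Col26a1 had none. Col3a1 lies on the plus strand at chr1:45311288-45311587 and Col1a2 on the plus strand at chr6:4505368-4505667, and capitals mark matches on either strand to the TATA box (searched as TATAAA), to the CCAAT box (searched as its own letters) and to the GC box (searched as GGGCGG), none of which overlap here.
Col3a1: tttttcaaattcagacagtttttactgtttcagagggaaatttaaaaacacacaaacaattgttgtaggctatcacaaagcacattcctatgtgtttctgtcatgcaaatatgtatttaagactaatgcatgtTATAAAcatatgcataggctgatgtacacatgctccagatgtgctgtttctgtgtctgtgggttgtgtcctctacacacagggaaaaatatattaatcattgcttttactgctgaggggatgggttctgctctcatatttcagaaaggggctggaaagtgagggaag
Col1a2: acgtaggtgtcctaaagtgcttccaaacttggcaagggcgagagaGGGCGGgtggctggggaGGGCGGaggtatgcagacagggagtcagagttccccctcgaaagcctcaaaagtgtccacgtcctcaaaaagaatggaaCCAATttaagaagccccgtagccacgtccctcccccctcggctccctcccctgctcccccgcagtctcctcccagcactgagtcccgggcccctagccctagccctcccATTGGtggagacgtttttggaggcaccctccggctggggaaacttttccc
The Col3a1 window held a single match, the TATA box letters at -117 from the annotated start, and no GC box or CCAAT box. The Col1a2 window held the GC box at 2 places (-205 and -188), a CCAAT box on each strand (-109, and 1 at the start itself), and no TATA box. Over the 38 collagen windows the TATA box was found in 13.2%, the CCAAT box in 34.2% and the GC box in 60.5%, where 13.6%, 37.4% and 35.7% of all 32851 windows of that length held them. The collagen windows had a median GC content of 59.9%, against 52.7% for all windows. These matches describe letters in the window only.

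Of the other fibrillar chains, Col5a1, Col5a2 and Col5a3 encode type V collagen, which nucleates type I fibrils. Col5a2 had 767, 223, 461 and 137 CPM in Irx3-infarcted, 619, 490, 660 and 1029 CPM in control-infarcted and 23.2, 26.6, 15.6 and 21.1 CPM in sham hearts. Its log2 fold change against sham was 4.20 (SE 0.48) in Irx3-infarcted and 5.01 (SE 0.50) in control-infarcted hearts, both called, and Col5a1 followed at 3.37 and 3.95. Col5a3 rose least of the type V chains, 1.90 (SE 0.35) in Irx3-infarcted and 1.59 (SE 0.35) in control-infarcted hearts against sham. Col27a1, a fibrillar chain of developing cartilage, rose by 2.37 and 3.14 on the log2 scale in the same order.

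Several fibrillar chains, among them the cartilage chains Col2a1 and Col11a1, were almost unread in sham hearts. Col2a1, the chain of cartilage fibrils, had 6.61, 0.239, 0.327 and 0.076 CPM in Irx3-infarcted and 11.9, 7.56, 2.68 and 10.2 CPM in control-infarcted hearts, and 0 counts in all sham hearts. Against the limit of 3 counts over the sham group it was at least 39.7-fold higher in Irx3-infarcted and at least 162-fold higher in control-infarcted hearts. Without Irx3-infarcted replicate 1, which carried nearly all of its counts in that group, the bound was at least 4.52-fold. Col11a1, its partner in cartilage fibrils, had 49.6, 2.73, 3.16 and 0.228 CPM in Irx3-infarcted and 18, 19.5, 16.7 and 35 CPM in control-infarcted hearts, with 3 counts in the whole sham group. Its ratio of group counts to sham, scaled by library totals, was 305 (95% counting interval 104 to 1480.2) in Irx3-infarcted and 445 (152 to 2158.0) in control-infarcted hearts, and 44.4 against sham in Irx3-infarcted hearts without Irx3-infarcted replicate 1. Col24a1 had 2 counts over the sham group, for ratios of 182 (50.0 to 1505) in Irx3-infarcted and 118 (32.5 to 982) in control-infarcted hearts, which fell to 53.1 without Irx3-infarcted replicate 1 and to 78.7 without control-infarcted replicate 4. All sham counts of each gene came from 1 library: without sham replicate 2 Col11a1 was at least 223-fold and at least 325-fold higher in Irx3-infarcted and control-infarcted hearts, and without sham replicate 1 Col24a1 was at least 92.0-fold and at least 59.9-fold higher. Col11a2 did not follow: it had 4.99, 3.06, 3.27 and 1.75 CPM in Irx3-infarcted, 8.44, 4.63, 7.4 and 6.1 CPM in control-infarcted and 5.27, 8.29, 7.1 and 7.58 CPM in sham hearts, with control-infarcted and sham libraries overlapping. The summed level of 6 chondrocyte-like markers also differed between the groups, at 20.8 to 778 CPM in Irx3-infarcted, 1222 to 6741 CPM in control-infarcted and 4.87 to 9.92 CPM in sham hearts, and its part in these chains was not tested. On average, most of that sum in both infarcted groups, though not in sham hearts, was Comp, a cartilage matrix protein. Comp was at 282 ± 290 CPM, 3009 ± 2427 CPM and 2.02 ± 0.71 CPM in the Irx3-infarcted, control-infarcted and sham hearts (SD, n = 4 each). In the same order Sox9, the cartilage transcription factor, averaged 19.2, 20.4 and 1.81 CPM and Acan, the core protein of aggrecan, 14.6, 15.1 and 0.622 CPM. Of the 6 markers, 5 were called higher in control-infarcted against sham hearts, and 2 lower and none higher in Irx3-infarcted against control-infarcted hearts. The counting intervals and bounds cover counting error only.

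Type IV collagen is built from 6 chains whose genes lie in head-to-head pairs. Col4a1 and Col4a2 encode the network of most basement membranes and share a start region on mouse chromosome 8, where the annotated starts are 21 bases apart. Their RefSeq windows are shown because both genes are read from the same stretch of DNA, Col4a1 on the minus strand at chr8:11312777-11313076 and Col4a2 on the plus strand at chr8:11312555-11312854 (GRCm38.p6). Capitals mark the 78 bases that both windows hold, each being the reverse complement of the other.
Col4a1: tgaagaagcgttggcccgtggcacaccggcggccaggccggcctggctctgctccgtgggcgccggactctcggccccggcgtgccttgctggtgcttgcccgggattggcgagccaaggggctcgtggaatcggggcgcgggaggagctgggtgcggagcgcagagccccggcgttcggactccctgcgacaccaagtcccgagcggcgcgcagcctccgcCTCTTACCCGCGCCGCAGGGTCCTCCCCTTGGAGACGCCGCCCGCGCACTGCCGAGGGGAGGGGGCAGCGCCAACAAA
Col4a2: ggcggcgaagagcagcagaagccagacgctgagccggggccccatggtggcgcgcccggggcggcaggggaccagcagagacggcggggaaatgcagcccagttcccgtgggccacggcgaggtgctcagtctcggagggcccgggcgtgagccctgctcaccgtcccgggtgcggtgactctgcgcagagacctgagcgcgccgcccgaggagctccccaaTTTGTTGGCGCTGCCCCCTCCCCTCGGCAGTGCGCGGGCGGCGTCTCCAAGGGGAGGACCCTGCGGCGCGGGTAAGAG
Col4a1 had 1346, 907, 1094.6 and 749 CPM in Irx3-infarcted, 1728, 1470.2, 1589.9 and 1893 CPM in control-infarcted and 603, 708, 601 and 540 CPM in sham hearts. Col4a2 had 1129, 762, 896 and 605 CPM in Irx3-infarcted, 1599.5, 1292, 1508 and 1822 CPM in control-infarcted and 573, 711, 627 and 532 CPM in sham hearts. Control-infarcted libraries were the highest for both genes with no overlap, and the Irx3-infarcted libraries lay between the other groups, overlapping sham for Col4a2 only. In control-infarcted against sham hearts Col4a1 rose by 1.45 (SE 0.20, adjusted p 0.000127) and Col4a2 by 1.35 (SE 0.21, adjusted p 0.000252) on the log2 scale by edgeR. In Irx3-infarcted against sham hearts Col4a1 rose by 0.74 (SE 0.20, adjusted p 0.00544), and Col4a2 was 0.47 (SE 0.21) with an adjusted p of 0.0595. The gene models of this pair overlap by 22 bases at their starts and the strand setting of the counting was not stated, so reads there cannot be assigned with certainty.

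The minor type IV chains, which form the specialised networks of kidney, lung and other sites, also rose. Col4a5 had 99.0, 81.1, 107 and 69.1 CPM in Irx3-infarcted, 60.0, 80.7, 74.9 and 80.5 CPM in control-infarcted and 33.1, 27.8, 25.8 and 29.6 CPM in sham hearts. Its head-to-head partner Col4a6 had 7.9, 4.12, 8.06 and 2.58 CPM in Irx3-infarcted, 5.71, 7.07, 10.2 and 8.58 CPM in control-infarcted and 0.772, 0.565, 0.683 and 1.32 CPM in sham hearts. Both lay above sham in every infarcted library, and the infarcted groups overlapped. Col4a6 rose more, by 2.76 (SE 0.40) in Irx3-infarcted and 3.23 (SE 0.40) in control-infarcted hearts, against 1.61 (SE 0.15) and 1.35 (SE 0.15) for Col4a5; the difference between the partners was not tested. Col4a3 had 11.4, 11.0, 14.5 and 8.89 CPM in Irx3-infarcted, 10.3, 12.6, 13.4 and 6.3 CPM in control-infarcted and 4.42, 2.95, 3.21 and 2.22 CPM in sham hearts. Col4a4, its head-to-head partner, had 23.8, 24.8, 28 and 16.3 CPM in Irx3-infarcted, 18.7, 22.2, 22.0 and 13.5 CPM in control-infarcted and 11.9, 11.6, 8.94 and 9.66 CPM in sham hearts. Both rose against sham in each infarcted group, Col4a3 by 1.84 (SE 0.27) and 1.73 (SE 0.27) and Col4a4 by 1.14 (SE 0.20) and 0.86 (SE 0.20) in Irx3-infarcted and control-infarcted hearts.

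At the basement membrane zone, Col15a1 and Col18a1 encode the multiplexins, whose ends are cut to release restin and endostatin, and Col7a1 encodes the chain of anchoring fibrils. Col15a1 had 626, 324, 359 and 253 CPM in Irx3-infarcted, 509, 383, 558 and 613 CPM in control-infarcted and 60.1, 72.6, 74.0 and 42.5 CPM in sham hearts. Col18a1 had 94.1, 40.1, 47.5 and 24.2 CPM in Irx3-infarcted, 97.7, 53.7, 68.2 and 164 CPM in control-infarcted and 17.8, 28.1, 24.2 and 14.9 CPM in sham hearts. Col7a1 had 4.99, 4.31, 4.25 and 1.29 CPM in Irx3-infarcted, 15.6, 8.72, 11.7 and 15.1 CPM in control-infarcted and 1.4, 1.95, 2.32 and 0.556 CPM in sham hearts. Col15a1 lay apart from sham in both infarcted groups, while Irx3-infarcted replicate 4 reached into the sham range for Col18a1 and Col7a1. Against sham the log2 fold change was 2.65 (SE 0.28) and 3.05 (SE 0.29) for Col15a1 in Irx3-infarcted and control-infarcted hearts, 1.28 (SE 0.41) and 2.17 (SE 0.42) for Col18a1, and 1.26 (SE 0.42) and 3.03 (SE 0.42) for Col7a1. All 6 values were called, but the calls of Col18a1 and Col7a1 in Irx3-infarcted hearts were lost without Irx3-infarcted replicate 1, with adjusted p 0.0878 and 0.063 by edgeR, and that of Col7a1 also without Irx3-infarcted replicate 2 or sham replicate 4.

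FACIT collagens decorate fibrils and set their spacing. Col14a1, which binds type I fibrils, had 408, 120, 263 and 53.4 CPM in Irx3-infarcted, 300, 262, 303 and 607 CPM in control-infarcted and 11.9, 14.2, 7.78 and 8.83 CPM in sham hearts. Col16a1 had 217, 65.8, 113 and 26.9 CPM in Irx3-infarcted, 218, 155, 234 and 388 CPM in control-infarcted and 11.3, 15.1, 14.4 and 10.7 CPM in sham hearts. Every infarcted library exceeded every sham library for both genes, and Irx3-infarcted replicate 4 was the lowest infarcted library. Col14a1 rose against sham by 4.31 (SE 0.55) in Irx3-infarcted and 5.11 (SE 0.57) in control-infarcted hearts, and Col16a1 by 3.04 (SE 0.50) and 4.27 (SE 0.53). Col12a1, a FACIT chain of tendon and healing tissue, rose most in the class, by 5.60 (SE 0.49) and 6.41 (SE 0.51). Col9a2, a chain of cartilage type IX collagen, had 6.91, 3.78, 5.39 and 2.43 CPM in Irx3-infarcted, 14.5, 7.93, 13.6 and 17.2 CPM in control-infarcted and 0.421, 0.502, 0.41 and 0.348 CPM in sham hearts. Its groups were all apart, at 3.44 (SE 0.38) and 4.96 (SE 0.38) against sham. Col22a1, known from tissue junctions, rose by 3.06 (SE 0.61) and 3.83 (SE 0.61), the control-infarcted value resting in part on replicate 3 and reading 3.01 without it. Col9a3 was called in control-infarcted hearts (1.74, SE 0.52) and not in Irx3-infarcted hearts (1.19, SE 0.53), a call lost without control-infarcted replicate 1, and Col20a1 was not called against sham in either group.

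The short-chain collagen VIII, a lattice former of vessel walls, was among the strongest risers. Col8a1 had 589, 228, 348 and 185 CPM in Irx3-infarcted, 283, 265, 325 and 362 CPM in control-infarcted and 15.3, 15.3, 9.15 and 12.1 CPM in sham hearts. Col8a2 had 124, 22.9, 45.6 and 4.1 CPM in Irx3-infarcted, 73.7, 62.0, 83.6 and 157 CPM in control-infarcted and 0.281, 0.314, 0.751 and 0.139 CPM in sham hearts. Both lay apart from sham in every infarcted library, with the widest spread for Col8a2 among Irx3-infarcted hearts. Against sham Col8a1 rose by 4.70 (SE 0.35) in Irx3-infarcted and 4.57 (SE 0.35) in control-infarcted hearts, and Col8a2 by 7.02 (SE 0.99) and 7.95 (SE 1.01).

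Type VI collagen is assembled from the Col6a1 and Col6a2 chains with Col6a3 or a like chain, and anchors cells to the matrix. Col6a1 had 813, 302, 539 and 209 CPM in Irx3-infarcted, 987, 598, 1110.0 and 1426 CPM in control-infarcted and 111, 121, 109 and 88.3 CPM in sham hearts. Col6a2, its neighbour on the same strand of chromosome 10, had 822, 300.0, 504 and 241 CPM in Irx3-infarcted, 972, 595, 1061 and 1433 CPM in control-infarcted and 101, 128, 112 and 85.4 CPM in sham hearts. The values of both genes ran closely together in all 12 libraries and lay apart from sham. Against sham Col6a1 rose by 2.12 (SE 0.38) in Irx3-infarcted and 3.26 (SE 0.39) in control-infarcted hearts, and Col6a3 by 2.25 (SE 0.42) and 2.48 (SE 0.42). Col6a5 had 14.6, 4.55, 4.74 and 2.05 CPM in Irx3-infarcted and 6.69, 2.74, 4.9 and 37.8 CPM in control-infarcted hearts, with 1 count in the whole sham group. Its ratio to sham was 411 (95% counting interval 73.4 to 16255) in Irx3-infarcted and 807 (145 to 31915) in control-infarcted hearts, 236 without Irx3-infarcted replicate 1 and 289 without control-infarcted replicate 4. Without sham replicate 1, which held the count, it was at least 104-fold and at least 204-fold higher in Irx3-infarcted and control-infarcted hearts. Col6a6 went the other way, with 6.91, 4.26, 6.86 and 8.82 CPM in Irx3-infarcted, 5.25, 3.6, 7.46 and 6.04 CPM in control-infarcted and 10.9, 9.67, 11.7 and 7.3 CPM in sham hearts. The highest control-infarcted library passed the lowest sham library, as did an Irx3-infarcted library. The log2 fold change in control-infarcted against sham hearts was -0.82 (SE 0.26, edgeR adjusted p 0.0172), and the call was lost without sham replicate 3 (adjusted p 0.052).

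The transmembrane and remaining chains were low in all groups. Col23a1 had 3.55, 2.3, 5.28 and 1.06 CPM in Irx3-infarcted, 3.65, 3.17, 3.25 and 4.75 CPM in control-infarcted and 2.04, 2.89, 3.48 and 2.09 CPM in sham hearts. Col13a1, a chain of the neuromuscular junction, had 0.889, 0.958, 0.49 and 1.29 CPM in Irx3-infarcted, 2.01, 2.26, 1.48 and 0.568 CPM in control-infarcted and 1.05, 0.44, 1.09 and 0.834 CPM in sham hearts. Col28a1, described in peripheral nerve, had 1.38, 1.15, 3.1 and 1.14 CPM in Irx3-infarcted, 4.06, 2.13, 3.36 and 3.98 CPM in control-infarcted and 2.88, 2.7, 1.77 and 2.92 CPM in sham hearts. The groups overlapped for all 3 genes, and none was called against sham. Col26a1 had 0.494, 0.287, 0.327 and 1.22 CPM in Irx3-infarcted, 1.75, 0.305, 0.285 and 1.08 CPM in control-infarcted and 0.491, 0.188, 0.0683 and 0.0695 CPM in sham hearts, with the groups overlapping. Its call in control-infarcted against sham hearts (log2 fold change 2.05, SE 0.78) was lost when any of 5 libraries was left out, sham replicates 2, 3 and 4 and control-infarcted replicates 1 and 4, with an adjusted p up to 0.174 by edgeR, and also with the GC correction (adjusted p 0.0505). The 6 chains that were not tested had few counts: Col10a1 had 0, 6 and 1 over the Irx3-infarcted, control-infarcted and sham groups, Col9a1 had 16, 35 and 0, and Col19a1 had 13, 9 and 0. Col6a4 had 10, 9 and 4 counts, Col17a1 had 16, 5 and 8, and Col25a1 had 26, 11 and 23 in the same order.

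In Irx3-infarcted against control-infarcted hearts, 10 of 38 chains fell, none rose and 28 did not pass the test, with a median log2 fold change of -0.79 against 0.00 for all tested genes. Of all tested genes, 25.2% were called higher and 24.1% lower by edgeR, so the share of collagen chains called lower was close to that of all genes. The log2 fold change was below 0 in 31 of the 38 chains, and in 4 of them, Col4a1, Col4a2, Col7a1 and Col9a2, every Irx3-infarcted library lay below every control-infarcted library, as in 18.9% of all tested genes. At an adjusted p over all genes, Col4a2 fell by 0.88 (SE 0.21, adjusted p 0.00365), Col4a1 by 0.71 (SE 0.20, 0.01), Col7a1 by 1.77 (SE 0.39, 0.00237) and Col9a2 by 1.51 (SE 0.30, 0.00109) on the log2 scale. The others that fell were Col11a2 (-1.01, SE 0.28), Col6a1 (-1.15, SE 0.36), Col6a2 (-1.12, SE 0.35), Col16a1 (-1.23, SE 0.47), Col20a1 (-0.97, SE 0.38) and Col28a1 (-0.99, SE 0.35). The main scar chains were not called: Col1a1 was -1.05 (SE 0.57, edgeR adjusted p 0.146), Col1a2 -1.11 (SE 0.51, 0.0889) and Col3a1 -0.70 (SE 0.51, 0.271). Col8a1 was 0.13 (SE 0.30) and Col4a5 0.27 (SE 0.15), likewise not called. Of 6 resident fibroblast markers 4 were called lower and none higher, and of 6 activated fibroblast markers 1 was called lower and none higher. Among the activated markers, Postn, a matrix protein, averaged 1141 ± 680 CPM in Irx3-infarcted and 985 ± 207 CPM in control-infarcted hearts (SD, n = 4 each). In the same order Acta2 averaged 122 and 287 CPM, Cthrc1 22.3 and 53.7 CPM and Ddah1 37.2 and 37.8 CPM. Fap averaged 8.77 and 5.23 CPM, and Lrrc15 16.1 and 8.14 CPM. Of 6 endothelial markers 2 were called higher and 4 lower, and of 6 mural markers 3 higher and 1 lower. The part of these cell types in the collagen values was not tested.

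The number of these calls depended on single libraries. Without Irx3-infarcted replicate 1 there were 22 chains called lower, Col1a1 among them at -1.83 (adjusted p 0.0122 by edgeR), without Irx3-infarcted replicate 2 there were 5, and without control-infarcted replicate 4 there were 6. At the same settings 22.7%, 20.1% and 20.9% of all tested genes were called lower. Col4a1, Col4a2, Col7a1, Col9a2 and Col11a2 kept their call whichever of the 8 libraries was left out. Without replicate 4 of both infarcted groups 7 chains were lower and 1, Col4a5 at 0.41, was higher, where 22.4% and 23.3% of all genes were called lower and higher, and Col1a1 was -0.21 (adjusted p 0.696 by edgeR).

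The comparison also moved with base composition. Tested collagen transcripts had a median GC content of 56.5%, against 50.5% for all tested genes, and 30 of 38 lay above that of all tested genes. Over the 38 chains, which share their libraries, Spearman's rho between GC content and log2 fold change was -0.44. After a per-library correction for GC content it was 0.03, the median log2 fold change was -0.22, and 2 chains were called lower and 1 higher, where 12.3% and 13.4% of all genes were called lower and higher. Those lower were Col7a1 (-1.07, adjusted p 0.0384 by edgeR) and Col9a2 (-0.81, 0.0372), and the higher was Col5a3 (1.04, 0.0299). With the correction Col4a1 was -0.09 (edgeR adjusted p 0.761), Col4a2 -0.19 (0.473) and Col1a1 -0.33 (0.697). With the correction and without replicate 4 of both infarcted groups no chain was called lower, and Col4a4 (0.43), Col4a5 (0.59) and Col5a3 (1.40) were called higher, where 11.6% and 11.9% of all genes were called lower and higher. The median log2 fold change of the chains was then 0.11. In control-infarcted against sham hearts the median shift of a chain by the correction was -0.01, and it left 31 chains higher and 1 lower, where 29.9% and 23.3% of all genes were called higher and lower. In Irx3-infarcted against sham hearts the shift was 0.53, to 32 chains higher and none lower against 32.1% and 22% of all genes, Col4a2 being higher at 1.09 (adjusted p 0.000431 by edgeR). GC content goes together with the vector group in these libraries, as does the mitochondrial share given above, and the part of either in the collagen values was not tested beyond this correction.

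**Figure D4:**
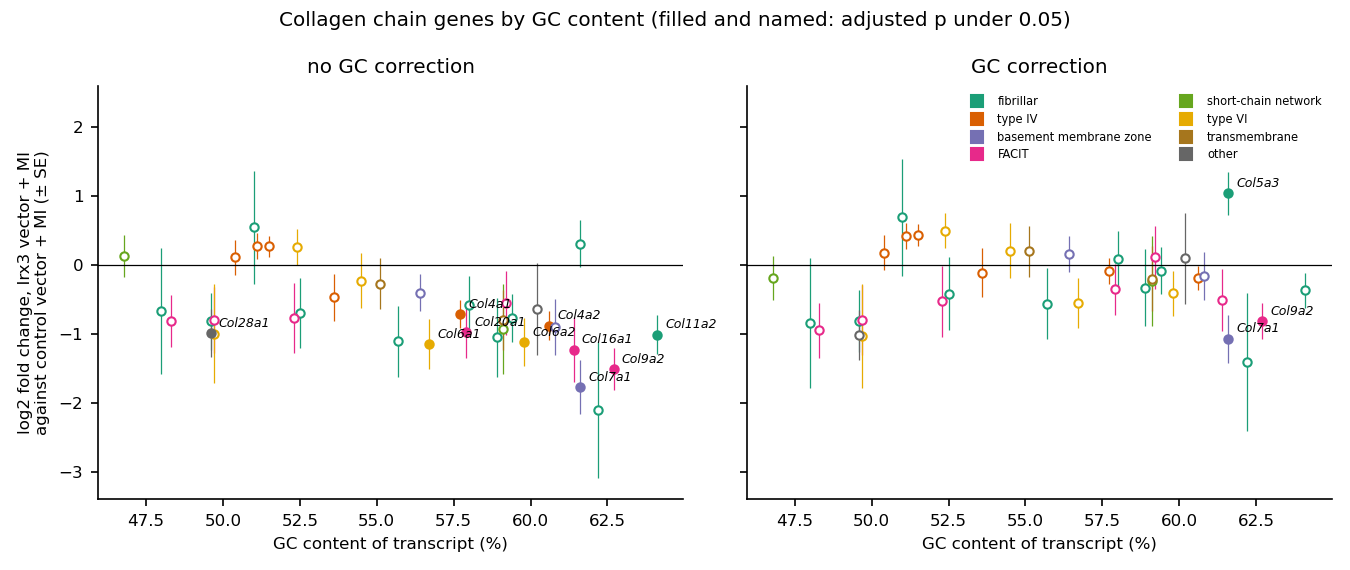
Each point is a tested collagen chain gene, with the GC content of its transcript (%) on the horizontal axis and its log2 fold change with standard error, Irx3-infarcted against control-infarcted hearts, on the vertical axis. Filled and named points had an adjusted p under 0.05. Without the correction (left) the 10 named chains all lie below 0, and with it (right) Col7a1 and Col9a2 remain below and Col5a3 lies above.

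Chains of a class differed in how much they varied among mice of a group. Across the 4 Irx3-infarcted libraries the highest level of a fibrillar chain was a median of 7.72 times the lowest, against 2.29 in control-infarcted and 1.58 among the fibrillar chains read in every sham library. For type IV chains the same median was 1.76 in Irx3-infarcted, 1.53 in control-infarcted and 1.33 in sham hearts. The summed level of fibrillar chains ran from 640.0 to 5421 CPM per coding kb in Irx3-infarcted, from 2849 to 8187 in control-infarcted and from 93.1 to 137 in sham libraries. That of type IV chains ran from 287 to 517 CPM per coding kb in Irx3-infarcted, from 570.0 to 755 in control-infarcted and from 220.0 to 289 in sham libraries. Among Irx3-infarcted hearts, replicate 4 was the lowest library for 35 of 38 chains and replicate 1 the highest for 27. Replicate 4 had the highest mitochondrial share of its group, 19.0%, and replicate 1 the lowest, 10.4%. Among control-infarcted hearts, replicate 4 was the highest library for 22 chains and replicate 2 the lowest for 27, and their mitochondrial shares were 0.926% and 5.64%, the lowest and the highest of the group. The part of this share in the spread was not tested.

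Ratios between partner chains compare genes within a library, so the scaling of libraries cancels. The ratio of Col3a1 to Col1a1 counts was 1.04, 0.956, 1.21 and 1.47 in Irx3-infarcted, 0.769, 1.2, 1.02 and 0.743 in control-infarcted and 0.644, 0.706, 0.53 and 0.618 in sham hearts. Every infarcted library had more type III to type I transcript than every sham library, by 0.89 in Irx3-infarcted and 0.56 in control-infarcted hearts on the log2 scale, each with p = 0.0286, the smallest that 4 against 4 libraries allow (two-sided exact permutation test, adjusted p = 0.0429 over 9 ratio tests). Between the infarcted groups the difference was 0.34 with p = 0.171 (exact permutation), and -0.06 with the GC correction. The ratio of Col1a1 to Col1a2, chains that join in a fixed proportion in type I collagen, was 1.57, 1.57, 1.45 and 1.2 in Irx3-infarcted, 1.53, 1.28, 1.25 and 1.59 in control-infarcted and 1.08, 1.13, 1.13 and 0.917 in sham hearts. It lay above sham in all infarcted libraries, by 0.44 in Irx3-infarcted and 0.40 in control-infarcted hearts (log2, exact permutation p = 0.0286 each, adjusted p = 0.0429), and the infarcted groups differed by 0.04 (p = 0.914, exact permutation). The ratio of Col4a1 to Col4a2 was 1.19, 1.19, 1.22 and 1.24 in Irx3-infarcted, 1.08, 1.14, 1.05 and 1.04 in control-infarcted and 1.05, 0.996, 0.958 and 1.01 in sham hearts. All Irx3-infarcted libraries were above all others, by 0.17 against control-infarcted and 0.27 against sham hearts (log2, exact permutation p = 0.0286 each, adjusted p = 0.0429), and by 0.10 and 0.25 with the GC correction. Control-infarcted hearts differed from sham hearts by 0.10 (exact permutation p = 0.0571, adjusted p = 0.0734).

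**Figure D5:**
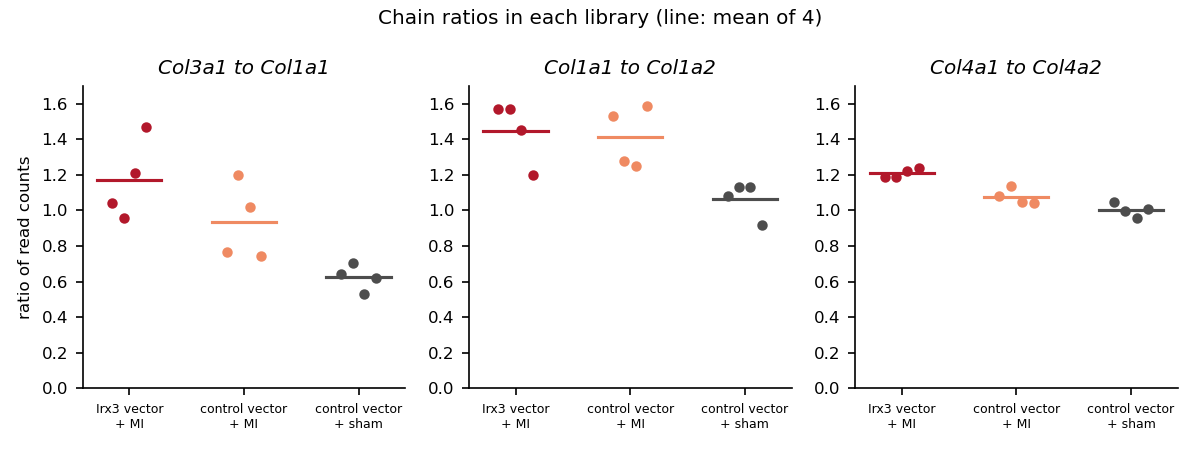
Each panel gives the ratio of read counts of 2 collagen chains in each library, with the groups ordered as Irx3-infarcted, control-infarcted and sham and the mean of 4 libraries as a line. Col3a1 to Col1a1 and Col1a1 to Col1a2 lie higher in every infarcted library than in every sham library, and Col4a1 to Col4a2 is highest in the Irx3-infarcted libraries, at 1.19 to 1.24.

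Genes that fold, cut, crosslink, degrade or bind collagen were read alongside the chains. Of 22 genes for folding and modification, 15 rose and 1 fell in control-infarcted against sham hearts, where 26.3% and 22.4% of all tested genes were called higher and lower. P4ha3, a subunit of a prolyl hydroxylase, averaged 17.4 ± 13.5 CPM in control-infarcted and 0.0679 ± 0.0574 CPM in sham hearts (SD, n = 4 each). P3h4, a partner of collagen lysine hydroxylation, was the gene that fell, by 0.48 on the log2 scale, a call lost when a library was left out (adjusted p up to 0.0587 by edgeR). Of 13 genes for propeptide cleavage and crosslinking, 11 rose and 1 fell, led by Loxl3, a lysyl oxidase, at 297 ± 120 CPM in control-infarcted and 7.82 ± 1.56 CPM in sham hearts (SD, n = 4 each). The gene that fell there was Tll2, a tolloid-like protease, by 3.0 (SE 0.85) on the log2 scale. Its level was low, at 0.204 ± 0.287 CPM in control-infarcted and 1.62 ± 0.551 CPM in sham hearts (SD, n = 4 each). Of 12 tested degradation and uptake genes 7 rose and 1 fell, Timp1 rising by 4.65 (SE 0.71) and Timp4 falling by 1.84 (SE 0.50), both inhibitors of matrix proteases. Of 8 tested collagen receptors 7 rose, Itga11, an integrin subunit of fibroblasts, by 4.15 (SE 0.48). Of 15 other tested basement membrane proteins 10 rose and 2 fell, Nid1, which bridges laminin and type IV collagen, rising by 1.62 (SE 0.26) and Lamb3, a laminin chain, falling by 1.26 (SE 0.30).

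In Irx3-infarcted against control-infarcted hearts, 2 folding genes rose and 10 fell, with 1 and 4 after the GC correction. The shares of all genes called higher and lower were 25.2% and 24.1%, and 13.4% and 12.3% after the correction. None of the cleavage and crosslinking genes rose and 7 fell, with 0 and 2 after the correction. Loxl3 averaged 72.8 ± 46.1 CPM in Irx3-infarcted and 297 ± 120 CPM in control-infarcted hearts (SD, n = 4 each), a log2 fold change of -2.03 (SE 0.45), or -1.67 with the correction, called in both. P3h3, a prolyl hydroxylase partner, fell by 1.57 (SE 0.37), a call lost with the correction, and Ppib, a prolyl isomerase of collagen folding, rose by 0.85 (SE 0.20) and by 1.06 with it. Among degradation and uptake genes 1 rose and 6 fell, with 1 and 4 after the correction. Mmp13, a collagenase, averaged 2.13 ± 1.31 CPM in Irx3-infarcted and 0.101 ± 0.104 CPM in control-infarcted hearts (SD, n = 4 each), and Timp4 fell by 2.24 (SE 0.52). Of the receptors 3 rose and 3 fell, with 0 and 2 after the correction. Lair1, a collagen receptor of immune cells, rose by 1.16 (SE 0.35) and Itga11 fell by 1.23 (SE 0.42); each call was lost with the correction and when single libraries were left out. Of the other basement membrane proteins none rose and 9 fell, with 0 and 5 after the correction, and Lama5, a laminin chain, fell by 1.25 (SE 0.23).

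In Irx3-infarcted against sham hearts the same lists gave 10 higher and 3 lower for folding, 10 and 1 for cleavage and crosslinking, 8 and 3 for degradation and uptake, 6 and 0 for receptors, and 2 and 3 for other basement membrane proteins, where 35.2% and 27.7% of all tested genes were called higher and lower. With the GC correction these lists gave 12 and 2, 11 and 0, 8 and 3, 6 and 0, and 5 and 2. The shares of all genes called higher and lower were then 32.1% and 22%. For the other basement membrane proteins the median log2 fold change was -0.41, and 0.16 with the correction. P4ha2, a prolyl hydroxylase subunit, fell by 0.94 (SE 0.11) and Lox, the main lysyl oxidase, rose by 4.27 (SE 0.62). Timp4 fell by 4.07 (SE 0.56), to 9.8 ± 4.51 CPM in Irx3-infarcted hearts, against 165 ± 6.49 CPM in sham hearts (SD, n = 4 each). Lamb3 fell by 2.17 (SE 0.31), and Lama4, a laminin chain of vessels, rose by 1.01 (SE 0.17). Adamts3, a procollagen protease, fell by 0.65 (SE 0.20), a call lost with the GC correction, where it was -0.48.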

How the data were processed

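The deposited table holds unnormalised counts of reads for each gene and mouse, made by the authors with fastp and the mouse build GRCm39 (mm39), per the submitters' processing notes. The aligner, counting tool, annotation and strand setting, like the fastp version, are not given in the sources used. Values are whole numbers. The table also had 15 empty columns and 882 rows that repeat a symbol, none of them a collagen chain. A chi-square check of counts found no library deposited in duplicate.

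The test was edgeR's robust quasi-likelihood fit (version 4.0.16, R 4.3.3, TMM factors, low counts removed with filterByExpr) on all 12 libraries with 1 term per group (9 residual degrees of freedom, 15742 genes). Calls needed a p under 0.05 after Benjamini-Hochberg adjustment across the whole table. CPM uses the TMM factors. Chain ratios were tested by two-sided exact permutation over 70 assignments. Coding lengths, GC content, and the strands, neighbours and overlap of genes came from GENCODE M21 on GRCm38, matched by symbol. The coordinates printed are those of the RefSeq windows (GRCm38.p6). The GC correction fitted a natural spline with 6 degrees of freedom per library in 3 rounds (15182 genes, 96.4% of those tested). The fits were also run on simulated counts with known changes. Those counts held no effect of GC content, so that run cannot speak to calls that moved with the GC correction. Alternatives were RLE factors, DESeq2 (1.42.0, Wald test), leaving the filter out, only the 2 groups compared, a replicate block, a fold change above 1.5 (glmTreat) and each library left out.

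The collagen genes, classes, lists and alternatives were chosen with earlier results of these data known, as were the GC correction and leaving out replicate 4 of both infarcted groups. Values of every library are given for the highest chains per class, the largest called changes, the type I and III chains and the paired type IV chains (27 genes), and for a few others chosen after their values were seen. Of the other pathway genes, the largest called rise and fall per list are named.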

Additional observations from a re-analysis of the deposited data

Results flagged for a closer look

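A library stood far from the other 3 of its group in 7 of the 114 group values checked over the 38 tested chains. The rule was Dixon's gap test at the 95% level, which flags about 1 in 20 independent normal values. The chains share their libraries, so the count cannot be set against that rate. In Irx3-infarcted hearts replicate 4 was low for Col7a1, at 1.29 CPM with the nearest library at 4.25 CPM, and for Col22a1, at 3.88 CPM with the nearest at 11.0 CPM. In sham hearts a single library held all counts of Col11a1 (replicate 2, 0.188 CPM), Col24a1 (replicate 1, 0.14 CPM) and Col6a5 (replicate 1, 0.0702 CPM). With the other libraries at 0, the test flags such a value whatever its size. Sham replicate 4 was low for Col9a3, at 0.139 CPM with the nearest at 0.562 CPM, and sham replicate 3 for Col28a1, at 1.77 CPM with the nearest at 2.7 CPM.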

How the results depend on the processing

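In control-infarcted against sham hearts, the 33 called collagen chains stayed between 30 and 34 under every alternative run. The count called lower was 0 when a fold change above 1.5 was required, and 0 to 1 with each library left out. In Irx3-infarcted against control-infarcted hearts, the 10 called lower became 5 with only the 2 groups compared, 2 with a fold change above 1.5, and 5 to 22 with each library left out, while chains called higher were 0 to 1. The GC correction gave 3 calls, 1 higher and 2 lower, and with replicate 4 of both infarcted groups left out as well 3 calls, 3 higher and 0 lower; leaving out both replicates 4 alone gave 1 higher. In Irx3-infarcted against sham hearts the chains called lower were 2 with RLE factors, with DESeq2, with only the 2 groups compared and without both replicates 4, 0 with the GC correction alone and with both replicates 4 left out too, and 1 to 2 with each library left out. Among values called in either setting, the sign turned for Col4a1 in Irx3-infarcted against control-infarcted hearts (0.04, edgeR adjusted p 0.89) and for Col20a1 in Irx3-infarcted against sham hearts (0.82, edgeR adjusted p 0.00849), both with the GC correction and without both replicates 4. Among chains called in neither setting, the sign in Irx3-infarcted against control-infarcted hearts turned for 7 of 38 with the GC correction, such as Col5a1 (-0.58, and 0.08 with it) and Col15a1 (-0.40 and 0.16), and for 13 of 37 when both replicates 4 were left out as well, where the median of the chains was 0.11. The cause of these shifts was not tested.

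The labels number the replicates 1 to 4 in each group, but libraries of the same number did not deviate together (r = -0.42 to 0.1 across genes), so they share a number only. With the replicate block 32 chains were higher and 1 lower in control-infarcted against sham hearts, 0 and 9 in Irx3-infarcted against control-infarcted hearts, and 29 and 1 in Irx3-infarcted against sham hearts. With the replicate block and the GC correction the counts were 32 and 1, then 1 and 2 (3 calls), then 32 and 0.

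With 3 libraries against 4 the exact permutation test cannot go below 0.0571, so leaving out a library ended every ratio call. The log2 difference was then 0.43 to 0.66 for Col3a1 to Col1a1 in control-infarcted and 0.78 to 0.99 in Irx3-infarcted against sham hearts, 0.33 to 0.46 and 0.37 to 0.53 for Col1a1 to Col1a2, and 0.25 to 0.29 for Col4a1 to Col4a2 in Irx3-infarcted against sham hearts. For Col4a1 to Col4a2 it was 0.15 to 0.19 in Irx3-infarcted against control-infarcted hearts, and 0.14 with the GC correction in control-infarcted against sham hearts (adjusted p = 0.0368, exact permutation). Depth limits what can be said of chains under about 1 CPM.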
